A study of Homo sapiens with 36 samples.

Results

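The genes described here are the 6 RAPGEF genes, RAPGEF1 to RAPGEF6, which encode guanine nucleotide exchange factors of the small GTPase RAP. They were picked by name from the 28516 genes of an RNA-seq count table, because RAPGEF3 had been seen to be higher after knockout of MEIS1, after knockout of MEIS2 and after activation of MEIS1. The values of RAPGEF3 in those 3 comparisons, and in others that rest on the same libraries, are therefore given as a description without a test. All 6 genes passed the filter of at least 10 counts summed over all libraries, as did 19689 genes in total.

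Human neural stem cells (hNSC, a commercial line) were infected with lentivirus and harvested 48 h later, in 6 treatments with 6 libraries per treatment. CRISPR-activation was used in MEIS1-OE and MEIS2-OE, that is a Cas9 that cannot cut fused to VP64 together with the MPH activator complex and a guide RNA with MS2 loops aimed at MEIS1 or MEIS2. In MEIS1-KO and MEIS2-KO they received cutting Cas9 with a mixture of 2 guides against the gene. A non-targeting guide with the same activation machinery (ctrl-OE) or cutting machinery (ctrl-KO) served as control, so that cutting of the genome as such and loss of the MEIS gene cannot be told apart in the knockout comparisons. The sources used here do not say whether the 6 libraries of a treatment came from separate cultures, and p-values then measure the spread between these libraries, which may be technical.

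RAP proteins switch between an inactive form bound to GDP and an active form bound to GTP, and exchange factors load them with GTP, which promotes integrin-mediated adhesion and cell-cell junctions. RAPGEF3 and RAPGEF4 encode EPAC1 and EPAC2, which are opened directly by cyclic AMP, so that they form a branch of cyclic AMP signalling beside protein kinase A. RAPGEF1 encodes a factor that CRK adaptors bring to signalling complexes, RAPGEF2 and RAPGEF6 encode the related PDZ-GEFs, and RAPGEF5 encodes an exchange factor related to the EPACs. In neural progenitors, RAP signalling is known for its part in cell adhesion and in migration of newborn neurons. The genes lie apart on 6 chromosomes (GRCh37): RAPGEF1 at chr9:134452157-134615463, RAPGEF2 at chr4:160024165-160281326, RAPGEF3 at chr12:48128146-48164823, RAPGEF4 at chr2:173600002-173917621, RAPGEF5 at chr7:22157854-22396773 and RAPGEF6 at chr5:130759614-130970924, with RAPGEF2 and RAPGEF4 on the plus strand and the others on the minus strand.

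The promoter sequence of RAPGEF3 is shown because MEIS proteins bind the hexamer TGACAG. The stretch holds the 250 bases before one of the 3 annotated starts of RAPGEF3, on the minus strand at chr12:47758881-47759130 (RefSeq sequence, build GRCh38.p14), printed 5′ to 3′ with TGACAG in capitals. RAPGEF3: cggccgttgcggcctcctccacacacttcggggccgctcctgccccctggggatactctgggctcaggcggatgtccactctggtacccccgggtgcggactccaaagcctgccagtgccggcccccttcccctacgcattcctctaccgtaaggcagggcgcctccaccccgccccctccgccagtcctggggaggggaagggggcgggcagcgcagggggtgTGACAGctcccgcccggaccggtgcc
The first base of the hexamer lies at position -26 from that start. TGACAG was searched on both strands of 300-base windows around annotated starts (250 bases before to 50 after), and 15.8% of all 35116 windows held it, so that a match of this kind is common. It was found in 1 of 3 windows of RAPGEF1, in 1 of 3 of RAPGEF2, in 1 of 3 of RAPGEF3 and in 1 of 2 of RAPGEF5, but in 0 of 4 of RAPGEF4 and 0 of 1 of RAPGEF6. The cyclic AMP response element TGACGTCA, which 1.85% of all windows held, was in 0 windows of every RAPGEF gene.

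The knockout guides were compared with the genomic span of every RAPGEF gene, since a cut near RAPGEF3 would bear on its reading. A site counted as a match with up to 4 mismatches over the 20 bases of the guide, beside an NGG motif, on either strand. Guide MEIS2-g2 had 1 such site in RAPGEF3, on the minus strand at chr12:48140059-48140081 (GRCh37), 24742 bases downstream of the annotated start of the gene. The differing bases are printed in capitals and the site is followed by its tgg motif.
MEIS2-g2: CccaCTcagcaggcAcccca
RAPGEF3 site: AccaTCcagcaggcTccccatgg
Counted from the 5′ end of the guide, the differences were C1A, C5T, T6C and A15T. The site lay in 9 of the 20 annotated transcripts of RAPGEF3, in an exon (untranslated region) of 1 of them and in the coding sequence of 0. The other 3 knockout guides had 0 sites in RAPGEF3, including both guides of MEIS1-KO, and no knockout guide had a site in the other 5 RAPGEF genes. The activation guides, and sequence outside the spans of the genes, were not searched. Whether MEIS2-g2 cuts at this site was not tested.

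Reads counted on genes ranged from 15429985 to 22940493 per library. The targeted genes followed the labels. MEIS1 was at 310 ± 14.3 CPM (read counts scaled to library size by the TMM method, given as mean ± SD with n = 6 here and below) in MEIS1-OE against 17.8 ± 1.10 in ctrl-OE, and at 8.96 ± 1.74 in MEIS1-KO against 25.7 ± 1.66 in ctrl-KO. MEIS2 was at 824 ± 20.04 CPM in MEIS2-OE against 22.6 ± 1.23 in ctrl-OE, and at 12.1 ± 0.94 in MEIS2-KO against 25.8 ± 1.58 in ctrl-KO. Neural stem cell markers were present, with means over all libraries of 193 CPM for SOX2 and 1307 CPM for NES. The neuronal markers MAP2 and TUBB3 were also present, at 488 and 190 CPM, as was SYT1 at 43.9 CPM. SNAP25 was at 3.21 and DCX at 0.47 CPM, whereas STMN2 and RBFOX3 were at or near 0. Summed, the neuron markers lay at 405 to 587 CPM in ctrl-OE and at 969 to 1013 in ctrl-KO. Of the astrocyte markers, SLC1A3 was at 14.7 and S100B at 2.61 CPM, and GFAP and ALDH1L1 were near 0.

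The family was dominated by RAPGEF1 and RAPGEF2. Per kilobase of merged annotated exon, and as a share of the summed level of the 6 genes in ctrl-KO, RAPGEF1 took 47.2% ± 3.01, RAPGEF2 31.3% ± 2.52, RAPGEF6 12.7% ± 0.69, RAPGEF5 5.94% ± 0.30, RAPGEF3 2.26% ± 0.21 and RAPGEF4 0.65% ± 0.13. RAPGEF1 and RAPGEF2 were also first and second in each of the other 5 treatments. The share of RAPGEF3 was 5.36% ± 0.57 in MEIS1-OE, its highest. The exon lengths come from an annotation that may differ from the one used for counting, and they include exons of rare transcripts.

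RAPGEF3, the cyclic AMP sensor EPAC1, was higher in both knockouts and in MEIS1-OE than in the respective controls by 1.503-fold to 1.68-fold, which is the pattern that chose the genes. In ctrl-OE its 6 libraries lay between 11.1 and 14.5 CPM with a median of 12.6. In MEIS1-OE they lay between 15.8 and 23.2 with a median of 20.8, all of them above every ctrl-OE library. In MEIS2-OE the range was 11.2 to 14.7 and the median 13.4, so that MEIS2-OE overlapped ctrl-OE. In ctrl-KO the libraries were lower, at 7.54 to 9.36 CPM with a median of 8.82. In MEIS1-KO their median was 12.6 and their range 12.02 to 14.995, while MEIS2-KO had a median of 14.04 and a range of 12.4 to 17.7, and every library of both knockouts lay above all of ctrl-KO. These values rest on 134 to 481 counts per library.

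**Figure D1:**
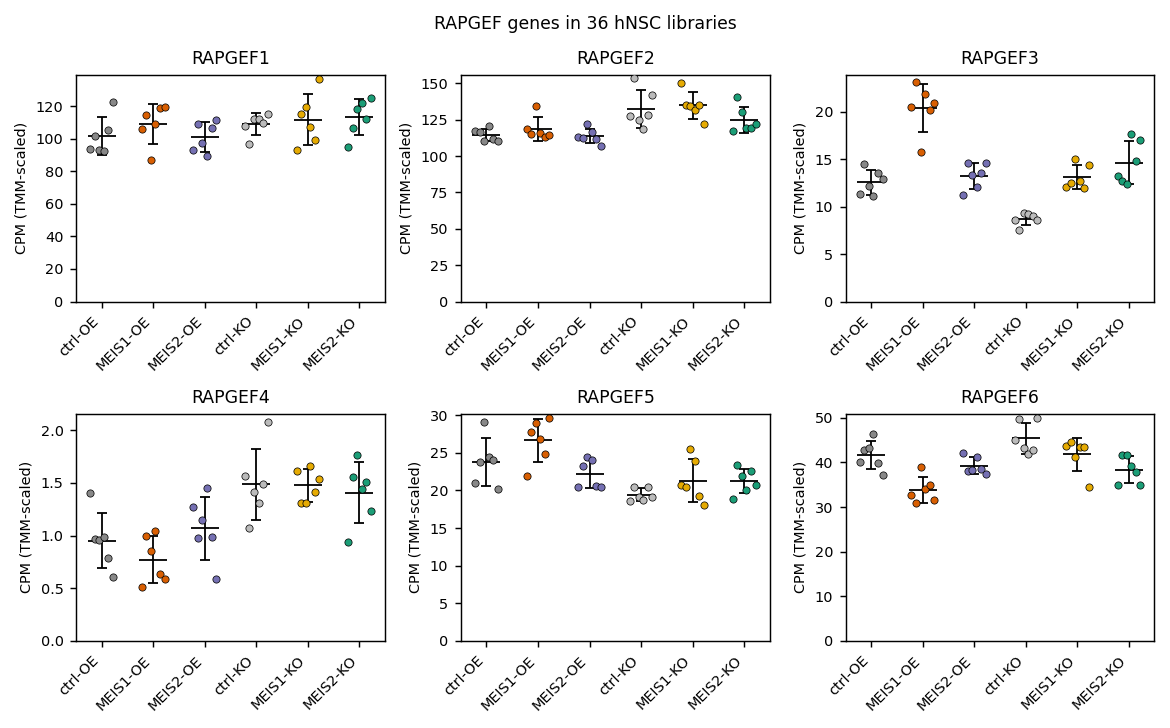
CPM of each RAPGEF gene in all 36 libraries, with 1 point per library grouped by treatment, a horizontal line at the mean and bars of 1 SD; the vertical axes start at 0 and differ between panels. RAPGEF3 lies at 7.54 to 9.36 CPM in ctrl-KO and at 15.8 to 23.2 CPM in MEIS1-OE, and the groups of RAPGEF1 overlap.

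The log2 fold change of RAPGEF3 (± SE from the fit) was 0.70 ± 0.09 in MEIS1-OE, 0.59 ± 0.10 in MEIS1-KO and 0.75 ± 0.10 in MEIS2-KO. In MEIS2-OE, which shares its control libraries with MEIS1-OE, the log2 fold change was 0.07 ± 0.09 and did not pass the test (adjusted p = 0.98, quasi-likelihood test of edgeR, Benjamini-Hochberg over all tested genes, as for all adjusted p-values below). Subtracting the knockout effect from the activation effect gave -0.68 ± 0.13 for MEIS2 and 0.11 ± 0.13 for MEIS1 on the log2 scale, since RAPGEF3 was higher in both directions of MEIS1 manipulation and in 1 direction of MEIS2 manipulation. Between the controls, RAPGEF3 was higher in ctrl-OE than in ctrl-KO by 0.53 ± 0.10.

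Ordered by mean level, RAPGEF3 was lowest in ctrl-KO at 8.73 ± 0.66 CPM, followed by ctrl-OE at 12.6 ± 1.30, MEIS1-KO at 13.1 ± 1.26, MEIS2-OE at 13.2 ± 1.39, MEIS2-KO at 14.7 ± 2.28 and MEIS1-OE at 20.4 ± 2.50. The step from ctrl-KO to ctrl-OE separated the libraries completely, as it did for 31.8% of all tested genes. Each of the other neighbours in this order overlapped. The range of both knockouts overlapped that of ctrl-OE, and all libraries of ctrl-KO lay below those of the other 5 treatments.

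RAPGEF4, the neural and endocrine EPAC2, was near the limit of detection. Its libraries held 10 to 43 counts, with medians of 0.96 CPM in ctrl-OE, 0.75 in MEIS1-OE, 1.06 in MEIS2-OE, 1.45 in ctrl-KO, 1.48 in MEIS1-KO and 1.48 in MEIS2-KO. Each treatment overlapped its control. Log2 fold changes against the control were -0.30 ± 0.21 in MEIS1-OE (adjusted p = 0.47), 0.16 ± 0.20 in MEIS2-OE (0.98), -0.02 ± 0.18 in MEIS1-KO (1.0) and -0.07 ± 0.18 in MEIS2-KO (0.87). Changes larger than these errors can also go uncalled at this depth. In MEIS1-OE against MEIS2-OE, a difference of -0.46 ± 0.21 was not called (adjusted p = 0.21). Per kilobase, RAPGEF3 exceeded RAPGEF4 in every library, by a median ratio of 3.73 in ctrl-KO, 8.15 in ctrl-OE and 16.2 in MEIS1-OE.

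RAPGEF6, one of the PDZ-GEFs, fell in MEIS1-OE and in MEIS2-KO. In ctrl-OE its libraries lay between 37.2 and 46.3 CPM with a median of 41.5, and in MEIS1-OE between 30.8 and 39.0 with a median of 33.3, with 5 of 6 below every control library. In ctrl-KO they lay between 42.0 and 49.9 with a median of 44.1. Those of MEIS2-KO lay between 34.9 and 41.6 with a median of 38.6, without overlap. The log2 fold change was -0.30 ± 0.06 in MEIS1-OE (adjusted p = 0.0013) and -0.24 ± 0.06 in MEIS2-KO (adjusted p = 0.014). It was -0.12 ± 0.06 in MEIS1-KO (adjusted p = 0.51) and -0.08 ± 0.06 in MEIS2-OE (adjusted p = 0.92). The call in MEIS1-OE stood in every alternative setting, with adjusted p from 8.9e-06 to 0.017. The call in MEIS2-KO was lost without replicate 1 (adjusted p = 0.072) or without replicate 6 (adjusted p = 0.054), and its size was -0.15 after a correction for GC content described below. An annotated protein-coding entry on the same strand spans 209341 bases of RAPGEF6, so that reads may be shared between the 2 entries.

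RAPGEF2, the other PDZ-GEF, did not pass the test in any treatment against its control. Its medians were 114 CPM in ctrl-OE, 115 in MEIS1-OE and 113 in MEIS2-OE, and 128 in ctrl-KO, 135 in MEIS1-KO and 121 in MEIS2-KO. The log2 fold changes lay between -0.08 ± 0.05 in MEIS2-KO (adjusted p = 0.37) and 0.05 ± 0.05 in MEIS1-OE (adjusted p = 0.69).

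RAPGEF5 had medians of 23.9 CPM in ctrl-OE, 27.3 in MEIS1-OE, 21.9 in MEIS2-OE, 19.1 in ctrl-KO, 20.6 in MEIS1-KO and 21.3 in MEIS2-KO, and each treatment overlapped its control. The log2 fold change was 0.16 ± 0.08 in MEIS1-OE (adjusted p = 0.25), -0.10 ± 0.08 in MEIS2-OE (0.94), 0.13 ± 0.08 in MEIS1-KO (0.60) and 0.13 ± 0.08 in MEIS2-KO (0.36).

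RAPGEF1, whose product is recruited by CRK adaptors, was the most abundant per kilobase and was not called in any treatment against its control. Its means lay between 101 CPM in MEIS2-OE and 113 CPM in MEIS2-KO, the ranges of all treatments overlapped, and the log2 fold changes against the control lay between -0.00 ± 0.08 in MEIS2-OE (adjusted p = 1.0) and 0.11 ± 0.08 in MEIS1-OE (adjusted p = 0.54).

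**Figure D2:**
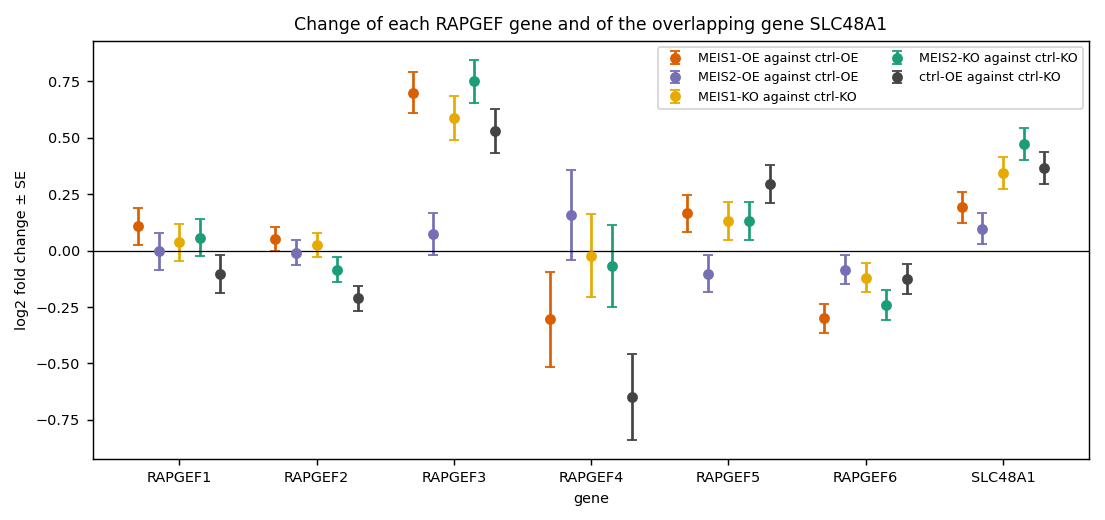
Log2 fold change (vertical axis, points) with its SE (bars) of each RAPGEF gene and of SLC48A1, which overlaps RAPGEF3, in the 4 comparisons with a control and between the 2 controls. RAPGEF3 stands at 0.70, 0.59 and 0.75 in MEIS1-OE, MEIS1-KO and MEIS2-KO and at 0.07 in MEIS2-OE, and RAPGEF6 lies below 0 in all 5 comparisons, of which MEIS1-OE and MEIS2-KO passed the test.

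Counted over the family, 2 of 6 genes were called at an adjusted p under 0.05 in MEIS1-OE, where 9.10% of all tested genes were called, and 2 of 6 in MEIS2-KO, where 10.0% were. In both, the genes were RAPGEF3 and RAPGEF6, with RAPGEF3 fixed by the choice of the genes. In MEIS1-KO 1 of 6 was called, RAPGEF3, beside 1.46% of all genes. In MEIS2-OE edgeR called 0 of 6, beside 1.35% of all genes, with 0 at an unadjusted p under 0.05 and 0 called by DESeq2. RAPGEF3 and RAPGEF6 in MEIS2-KO, and RAPGEF3 in the other 2 comparisons of the rule, had groups without overlap, as had 6.44% of all genes in MEIS2-KO, 4.38% in MEIS1-OE and 1.39% in MEIS1-KO. In MEIS2-OE 0 of 6 had, beside 1.33%. With an absolute log2 fold change above 0.58 as a second condition, RAPGEF3 was the gene that remained in each of these 3 comparisons, where 2.84%, 0.290% and 1.58% of all genes met both conditions in MEIS1-OE, MEIS1-KO and MEIS2-KO (0.498% in MEIS2-OE).

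Between the activation control and the cutting control, 4 of 6 genes were called, beside 51.4% of all genes, and RAPGEF3 among them shares its libraries with the rule. RAPGEF5 was higher in ctrl-OE by 0.29 ± 0.08 (adjusted p = 0.0031), RAPGEF2 was lower with -0.21 ± 0.05 (adjusted p = 0.0012) and RAPGEF4 was lower with -0.65 ± 0.19 (adjusted p = 0.0042). The call for RAPGEF4 was lost without replicate 6, with a log2 fold change of -0.43 and an adjusted p of 0.054. RAPGEF6 was at -0.13 ± 0.06 (adjusted p = 0.10) and passed the test without replicate 4 (adjusted p = 0.040).

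In the direct comparison of MEIS1-OE with MEIS2-OE, 3 of 6 genes were called, beside 7.75% of all genes, and 1 of the 3, RAPGEF3, rests on MEIS1-OE libraries that chose the genes, so that nothing is read from that count. RAPGEF3 was higher in MEIS1-OE by 0.62 ± 0.09, and all 6 of its libraries lay above those of MEIS2-OE, as groups without overlap were seen for 4.09% of all genes. RAPGEF5 was higher by 0.27 ± 0.08 (adjusted p = 0.036) and RAPGEF6 was lower with -0.22 ± 0.07 (adjusted p = 0.032), each with 5 of 6 libraries outside the range of MEIS2-OE. Both calls were fragile: RAPGEF5 lost its call without replicate 2, 4, 5 or 6 (adjusted p up to 0.15), with RLE size factors (0.052) and with the compared groups alone (0.051), and RAPGEF6 lost it without replicate 1, 2, 4 or 5 (adjusted p up to 0.19). In MEIS2-KO against MEIS1-KO edgeR and DESeq2 called 0 of 6 genes, with 0 at an unadjusted p under 0.05 and 0.0152% of all genes called, and RAPGEF3 differed by 0.16 ± 0.09. Testing the MEIS1 effect of activation against that of knockout called 0 of 6 with either tool and 0 at an unadjusted p under 0.05, beside 3.48% of all genes, and the same test for MEIS2 called RAPGEF3 as the 1 gene of 6, beside 2.57%. That call rests on knockout libraries that chose the genes, and nothing is read from it.

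RAPGEF3 lies on the minus strand of chromosome 12 at 48128146 to 48164823 (GRCh37), and SLC48A1, the gene of a heme transporter, starts within it on the plus strand and overlaps it by 17125 bases. The libraries were made with a stranded kit, but the strand setting used for counting is not given in the sources used here, so that reads of the 2 genes may not be fully separated. SLC48A1 rose in both knockouts. Its libraries lay between 22.2 and 27.4 CPM in ctrl-KO with a median of 24.9, between 27.5 and 35.999 in MEIS1-KO (median 30.6) and between 31.4 and 37.1 in MEIS2-KO (median 34.1), so that neither knockout overlapped the control. The log2 fold change was 0.34 ± 0.07 in MEIS1-KO (adjusted p = 0.0049) and 0.47 ± 0.07 in MEIS2-KO (adjusted p = 2.4e-05). In MEIS1-OE it was 0.19 ± 0.07 (adjusted p = 0.074) and in MEIS2-OE 0.10 ± 0.07 (adjusted p = 0.90), and ctrl-OE lay above ctrl-KO by 0.37 ± 0.07 (adjusted p = 2.8e-05). The part of shared reads in the pattern of RAPGEF3 was not tested.

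Of the other annotated genes within 100 kb of RAPGEF3, RPAP3, ENDOU, HDAC7 and VDR were tested. HDAC7, a histone deacetylase gene, stood at 0.29 ± 0.10 in MEIS1-OE (adjusted p = 0.054) and at 0.21 ± 0.10 in MEIS2-KO (adjusted p = 0.19), and it passed the test in both with the GC-content correction described below (0.23, adjusted p = 6.4e-08, and 0.10, adjusted p = 0.017). RPAP3, which encodes a co-chaperone subunit, had log2 fold changes between -0.08 ± 0.06 in MEIS1-OE (adjusted p = 0.48) and 0.06 ± 0.06 in MEIS2-OE (adjusted p = 0.97). ENDOU had at most 9 counts and VDR at most 23 in any library, and neither was called in a treatment against its control.

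Over the 36 libraries, genes whose log2 CPM followed that of RAPGEF3 closely among 12443 genes with a mean log2 CPM of at least 1 included ARHGAP23 (Pearson's r = 0.90), ECM1 (0.90), SH3BGRL3 (0.89) and TNFAIP1 (0.89). ECM1 encodes an extracellular matrix protein. SLC48A1 had r = 0.88 and rank 6. RAPGEF6 had r = -0.86 and rank 12437, near the other end of the order. RAPGEF1 had r = 0.29, RAPGEF2 -0.45 and RAPGEF5 0.56. These values describe libraries that share treatments, depth and base composition. After subtraction of the mean of each treatment, the correlation of the deviations with RAPGEF3 was 0.82 for SLC48A1, -0.64 for RAPGEF6, 0.72 for RAPGEF1, -0.61 for RAPGEF2 and -0.07 for RAPGEF5, so that libraries of 1 treatment also differed along this line.

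**Figure D3:**
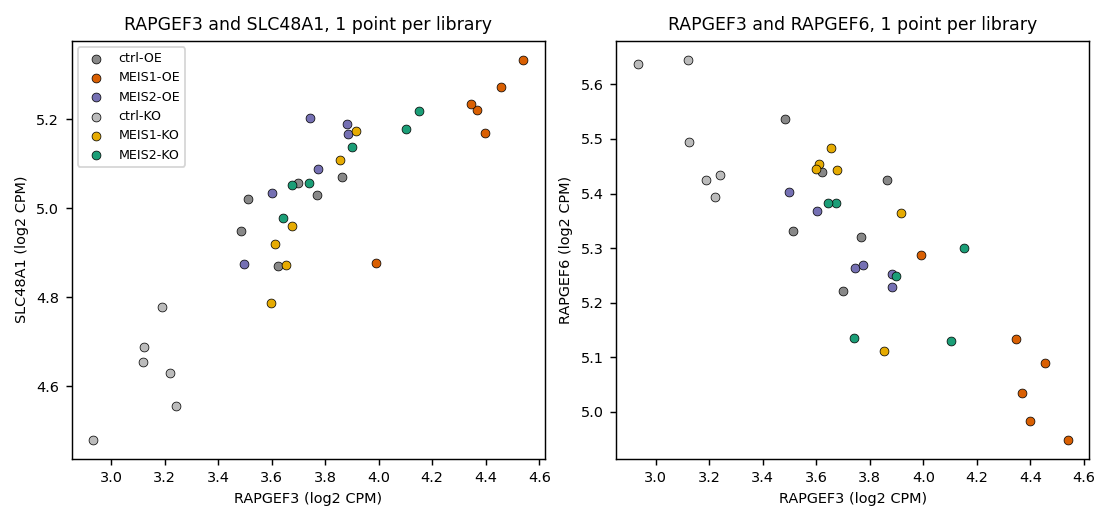
Log2 CPM of SLC48A1 (left) and RAPGEF6 (right) against log2 CPM of RAPGEF3, with 1 point per library coloured by treatment. Over the 36 libraries r was 0.88 with SLC48A1 and -0.86 with RAPGEF6, with ctrl-KO at the low end of RAPGEF3 and MEIS1-OE at the high end.

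Base composition moved with these comparisons. The annotated exons of RAPGEF1, RAPGEF3 and SLC48A1 had a GC content of 58.5%, 57.4% and 56.8%, against 42.8% for RAPGEF2, 43.2% for RAPGEF4, 45.01% for RAPGEF5 and 39.6% for RAPGEF6. Across 10830 genes, which are not independent replicates, the log2 fold change correlated with GC content with r = 0.18 in MEIS1-OE, -0.16 in MEIS2-OE, 0.31 in MEIS1-KO and 0.47 in MEIS2-KO. When the trend of each library over GC content was removed in the fit, an alternative chosen after seeing the data that covered 15865 genes (80.6% of those tested), RAPGEF3 was at 0.65 ± 0.06 in MEIS1-OE, 0.55 ± 0.07 in MEIS1-KO, 0.66 ± 0.07 in MEIS2-KO and 0.09 ± 0.06 in MEIS2-OE. RAPGEF6 was at -0.26 ± 0.04 in MEIS1-OE (adjusted p = 8.9e-06) and at -0.15 ± 0.04 in MEIS2-KO (adjusted p = 0.017). SLC48A1 was at 0.30 ± 0.05 in MEIS1-KO (adjusted p = 0.00016) and 0.39 ± 0.05 in MEIS2-KO (adjusted p = 5.4e-07), and at 0.15 ± 0.05 in MEIS1-OE, where it passed the test (adjusted p = 0.029). Between the controls RAPGEF1 was then called as well, with -0.25 ± 0.04 (adjusted p = 6.5e-08) in ctrl-OE against -0.10 ± 0.08 before, beside 61.1% of the genes in that fit.

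**Figure D4:**
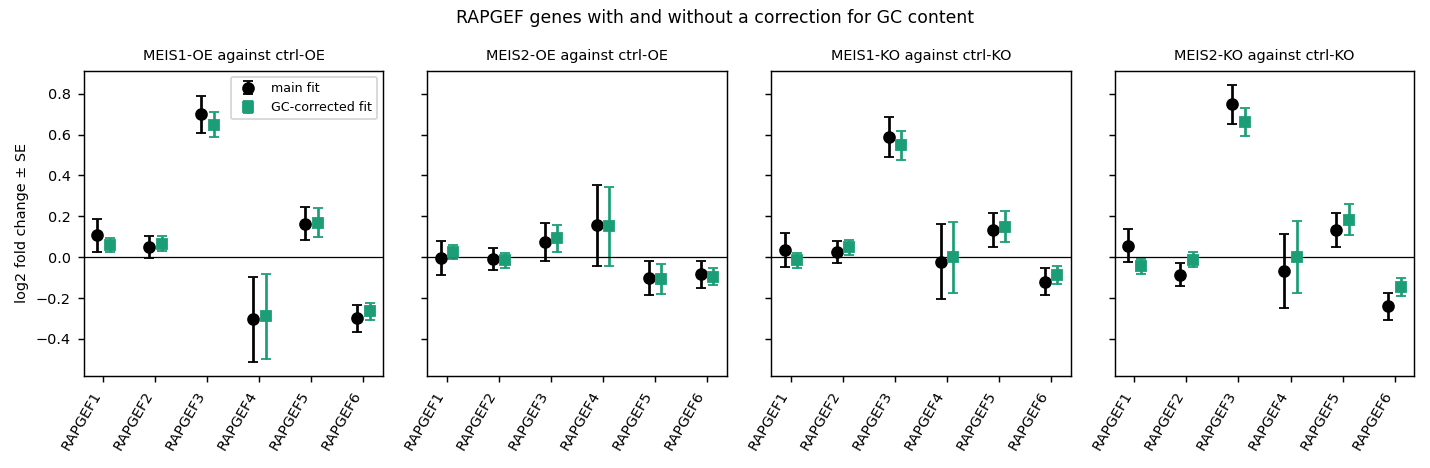
Log2 fold change with SE (vertical axis) of each RAPGEF gene in the 4 comparisons with a control, from the fit without (black circles) and with (green squares) a correction for GC content. RAPGEF3 remains at 0.65, 0.55 and 0.66 in MEIS1-OE, MEIS1-KO and MEIS2-KO, and RAPGEF6 in MEIS2-KO moves from -0.24 to -0.15.

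The partners of these exchange factors were called in mixed directions. Over all tested genes, 5.52% were called higher and 3.58% lower in MEIS1-OE, 1.07% and 0.279% in MEIS2-OE, 1.03% and 0.432% in MEIS1-KO, and 4.04% and 5.98% in MEIS2-KO. Of 5 RAP GTPase genes, 1 was called higher in MEIS1-KO and 1 higher and 1 lower in MEIS2-KO. RAP2B rose by 0.24 ± 0.06 in MEIS1-KO (adjusted p = 0.028) and by 0.35 ± 0.06 in MEIS2-KO (adjusted p = 0.00012), and RAP2A fell in MEIS2-KO with -0.25 ± 0.07 (adjusted p = 0.015). Leaving out 1 replicate number ended the call of RAP2B in MEIS1-KO (adjusted p up to 0.11, without replicate 3) and that of RAP2A (up to 0.098, without replicate 2). In the activation comparisons edgeR and DESeq2 called 0 of 5, with 1 in MEIS1-OE and 2 in MEIS2-OE at an unadjusted p under 0.05. The median log2 fold change of the 5 was 0.05 in MEIS1-OE, 0.08 in MEIS2-OE, 0.0035 in MEIS1-KO and -0.04 in MEIS2-KO, against -0.0013, -0.0093, 0.0033 and -0.011 over all tested genes.

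Among 7 other exchange factors that can act on RAP, RASGRP2, which encodes a RAP exchange factor regulated by calcium and diacylglycerol, rose by 1.22 ± 0.11 in MEIS1-OE (adjusted p = 3.5e-11) from a mean of 5.18 to 12.1 CPM. It also rose by 0.42 ± 0.13 in MEIS2-KO (adjusted p = 0.035) from 2.96 to 3.94 CPM, and it was the 1 gene of this list that edgeR called in either comparison, while DESeq2 called 1 in MEIS1-OE and 2 in MEIS2-KO. The call in MEIS2-KO was lost without replicate 2, 4 or 6 (adjusted p up to 0.23) and with the GC-content correction (0.068). Among 8 RAP GTPase-activating proteins, which return RAP to its inactive form, SIPA1 rose by 0.60 ± 0.16 in MEIS1-OE (adjusted p = 0.0097). SIPA1L2 rose by 0.18 ± 0.04 in MEIS2-OE (adjusted p = 0.010) and fell in MEIS2-KO with -0.15 ± 0.04 (adjusted p = 0.015). Each of these 3 calls was lost when 1 replicate number was left out, with adjusted p up to 0.086 for SIPA1 (without replicate 4) and up to 0.11 and 0.078 for SIPA1L2 in MEIS2-OE and MEIS2-KO (without replicates 3 and 1). In this list edgeR and DESeq2 called 0 of 8 in MEIS1-KO, with 1 at an unadjusted p under 0.05.

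Of 15 tested RAP effectors, 3 were called higher and 2 lower in MEIS1-OE, 1 higher in MEIS2-OE and 1 higher and 1 lower in MEIS2-KO. ARHGAP29, which acts downstream of RAP1, rose by 0.36 ± 0.06 in MEIS1-OE (adjusted p = 6.9e-05) and by 0.33 ± 0.06 in MEIS2-OE (adjusted p = 0.0013). ARAP3 rose by 0.24 ± 0.07 in MEIS1-OE (adjusted p = 0.017) and by 0.25 ± 0.07 in MEIS2-KO (adjusted p = 0.017). TNIK, a kinase that binds RAP2, fell in MEIS1-OE with -0.24 ± 0.05 (adjusted p = 0.00016), and MLLT4, the gene of the junction protein afadin, fell in MEIS2-KO with -0.15 ± 0.04 (adjusted p = 0.017). In MEIS1-KO edgeR called 0 of 15, DESeq2 1, and 5 had an unadjusted p under 0.05. Medians in the 4 comparisons lay between 0.01 and 0.08. Of 5 adaptors of RAPGEF1, NEDD9 rose by 0.20 ± 0.06 in MEIS1-OE (adjusted p = 0.049) and by 0.22 ± 0.06 in MEIS2-KO (adjusted p = 0.023), and CRKL fell in MEIS2-KO with -0.14 ± 0.05 (adjusted p = 0.035). The calls of ARAP3, MLLT4, NEDD9 and CRKL were lost when 1 replicate number was left out, with adjusted p up to 0.17 and 0.070 for ARAP3 in MEIS1-OE (without replicate 4) and MEIS2-KO (without replicate 5), up to 0.11 for MLLT4 (without replicate 1), up to 0.21 and 0.10 for NEDD9 (without replicates 4 and 5) and up to 0.18 for CRKL (without replicate 1).

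Genes that make or degrade cyclic AMP, upstream of the EPACs, and genes that sense or respond to it also changed in both directions. Of 16 phosphodiesterases of cyclic AMP, 2 were called higher and 3 lower in MEIS1-OE, 2 higher and 3 lower in MEIS2-KO, and 1 higher in MEIS2-OE. PDE3A fell with -0.65 ± 0.09 (adjusted p = 5.4e-07) and PDE1A with -0.73 ± 0.16 (adjusted p = 0.0013) in MEIS1-OE, while PDE10A rose by 0.32 ± 0.07 (adjusted p = 0.0015). PDE4C rose by 0.74 ± 0.12 (adjusted p = 9.1e-05) and PDE4A by 0.43 ± 0.09 (adjusted p = 0.0017) in MEIS2-KO, where PDE3B fell with -0.26 ± 0.07 (adjusted p = 0.016). PDE8B rose by 3.18 ± 0.31 in MEIS2-OE (adjusted p = 2.1e-09), from a mean of 0.12 to 1.13 CPM. The call of PDE3B was lost without replicate 1 or 5 (adjusted p up to 0.069). In MEIS1-KO edgeR called 0 of 16 and DESeq2 1, with 4 at an unadjusted p under 0.05.

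ADCY2, an adenylyl cyclase gene, fell in MEIS1-OE with -0.38 ± 0.07 (adjusted p = 0.00035) and in MEIS2-KO with -0.20 ± 0.06 (adjusted p = 0.043), and ADCY6 rose by 0.14 ± 0.05 in MEIS2-KO (adjusted p = 0.033), among 9 tested genes of cyclases and GNAS. Protein kinase A is the other main sensor of cyclic AMP. Of its 6 subunit genes, 2 were called lower in MEIS1-OE, PRKACA with -0.20 ± 0.03 (adjusted p = 5.2e-05) and PRKAR2A with -0.17 ± 0.05 (adjusted p = 0.033). In MEIS2-KO 2 were called lower as well, PRKAR2B with -0.33 ± 0.07 (adjusted p = 0.0021) and PRKACB with -0.27 ± 0.07 (adjusted p = 0.0088). Of 10 target genes of the cyclic AMP response factor CREB, PER1 rose by 0.90 ± 0.12 (adjusted p = 1.1e-06) and CREM by 0.26 ± 0.06 (adjusted p = 0.0039) in MEIS1-OE, and CREM by 0.20 ± 0.06 in MEIS2-KO (adjusted p = 0.041). The medians of the 10 lay between -0.05 and 0.03. Leaving out 1 replicate number ended the calls of ADCY2 in MEIS2-KO (adjusted p up to 0.16, without replicate 5), ADCY6 (0.11, without replicate 1), PRKAR2A (0.17, without replicate 5), PRKACB (0.065, without replicate 1) and CREM (0.051 in MEIS1-OE without replicate 6, and 0.14 in MEIS2-KO without replicate 5).

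Values of gene lists outside the RAP and cyclic AMP pathways are given beside those of RAPGEF3. Of 18 target genes of p53, the factor that halts the cell cycle after DNA damage, 13 were called higher in MEIS2-KO (median log2 fold change 0.29, against -0.011 over all tested genes), 6 in MEIS1-KO (median 0.25 against 0.0033) and 3 in MEIS1-OE (median 0.09 against -0.0013), and 0 were lower. The share of all tested genes called higher was 4.04% in MEIS2-KO, 1.03% in MEIS1-KO and 5.52% in MEIS1-OE. Between ctrl-OE and ctrl-KO, where RAPGEF3 was higher in ctrl-OE, 1 of the 18 was called higher and 8 lower (median -0.14). Over all tested genes, 27.5% were called higher and 23.9% lower there (median 0.05). CDKN1A, an inhibitor of the cell cycle, rose by 0.52 ± 0.07 in MEIS2-KO (adjusted p = 1.3e-05) and by 0.39 ± 0.07 in MEIS1-KO (adjusted p = 0.0022). XPC rose by 0.25 ± 0.03 (adjusted p = 1.5e-06) and TNFRSF10B by 0.19 ± 0.03 (adjusted p = 4.7e-05) in MEIS2-KO. In MEIS1-KO the count of 6 fell to 3 without replicate 1, 3, 4 or 5 and was 10 with DESeq2, and in MEIS1-OE the count of 3 fell to 1 without replicate 2. In MEIS2-OE 0 of 18 were called by edgeR or DESeq2, with 2 at an unadjusted p under 0.05. The summed level of the 18 genes was 2722 to 2930 CPM in ctrl-KO, 3189 to 3462 in MEIS1-KO and 3334 to 3527 in MEIS2-KO, against 2465 to 2644 in ctrl-OE, 2691 to 2886 in MEIS1-OE and 2510 to 2678 in MEIS2-OE. With the correction for GC content, 18 of 18 were called higher in MEIS1-KO, 17 of 18 in MEIS2-KO, 8 of 18 in MEIS1-OE and 0 in MEIS2-OE. Of the 15865 genes in that fit, 5.09%, 14.5%, 17.4% and 2.80% were called in these comparisons, counted in either direction. Their part in the level of RAPGEF3 was not tested.

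Markers of mesenchymal cells and pericytes were present in these cultures, except DCN, which had a mean of 0.20 CPM over all libraries. Of the 7 markers in this list, 3 were called higher in MEIS1-KO and 4 in MEIS2-KO. Beside these and the endothelial counts below, 1.03% of all tested genes were called higher in MEIS1-KO and 4.04% in MEIS2-KO. The shares were 5.52% in MEIS1-OE and 1.07% in MEIS2-OE. Their summed level was 355 to 396 CPM in ctrl-KO, 437 to 591 in MEIS1-KO and 467 to 614 in MEIS2-KO, while MEIS1-OE at 347 to 420 CPM overlapped ctrl-OE at 323 to 437. In MEIS1-OE 1 of 7 was called higher, PDGFRB with 0.30 ± 0.08 (adjusted p = 0.0055), a call lost without replicate 4 (adjusted p = 0.076). COL1A1, a fibrillar collagen gene, rose by 1.06 ± 0.22 in MEIS2-KO (adjusted p = 0.0011) and by 0.82 ± 0.22 in MEIS1-KO (adjusted p = 0.041), where the call was lost without any 1 of the 6 replicate numbers (adjusted p up to 0.20, without replicate 3). RGS5, a pericyte marker, rose by 0.60 ± 0.10 in both (adjusted p = 5.3e-05 in MEIS2-KO and 0.00032 in MEIS1-KO). Of 8 endothelial markers, a cell type in which EPAC1 is known to act, 4 were called higher in MEIS2-KO, where their sum was 265 to 320 CPM against 214 to 233 in ctrl-KO, and 0 were called in MEIS1-KO by edgeR, 2 by DESeq2 and 4 at an unadjusted p under 0.05. KDR rose by 0.42 ± 0.08 (adjusted p = 0.0010) and TIE1 by 0.46 ± 0.11 (adjusted p = 0.0053) in MEIS2-KO, whereas PECAM1 had a mean of 1.27 CPM and CLDN5 was at 0 in 12 of 36 libraries. In MEIS2-OE, where RAPGEF3 was at 0.07, KDR was the 1 of 8 called, with 0.36 ± 0.08 (adjusted p = 0.014), a call lost without replicate 4 or 5 (adjusted p up to 0.15). Between ctrl-OE and ctrl-KO 2 of the 8 endothelial markers were called higher and 5 lower, and 2 of the 7 mesenchymal markers higher and 2 lower. Over all tested genes, 27.5% were called higher and 23.9% lower in this comparison. In bulk RNA, fewer or more cells of a type and less or more RNA per cell cannot be told apart, and the part of these markers in the level of RAPGEF3 was not tested.

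Of 8 neural stem cell markers, 3 were called lower and 1 higher in MEIS2-KO, and 1 in each direction in MEIS1-KO. Among all tested genes, 5.98% were called lower and 4.04% higher in MEIS2-KO, and 0.432% and 1.03% in MEIS1-KO. Their summed level was 4334 to 4846 CPM in ctrl-KO, 4658 to 5947 in MEIS1-KO and 4893 to 5976 in MEIS2-KO, without overlap between MEIS2-KO and ctrl-KO, and VIM and NES are the most abundant genes of the list. PAX6 fell in MEIS2-KO with -0.52 ± 0.10 (adjusted p = 0.00069) and in MEIS1-KO with -0.42 ± 0.10 (adjusted p = 0.018), FABP7 fell in MEIS2-KO with -0.36 ± 0.08 (adjusted p = 0.0045), and VIM rose in both. In MEIS1-OE SOX1 fell with -0.31 ± 0.10 (adjusted p = 0.034) and was the 1 gene called. Of 6 tested neuron markers, SYT1 rose by 0.26 ± 0.06 in MEIS1-OE (adjusted p = 0.0052) and DCX fell in MEIS2-KO with -0.997 ± 0.32 (adjusted p = 0.038), from 0.89 to 0.45 CPM. Of 5 astrocyte markers, SLC1A3 fell in MEIS1-OE with -0.50 ± 0.14 (adjusted p = 0.014) and in MEIS2-KO with -0.45 ± 0.12 (adjusted p = 0.014). Among these, the calls in MEIS1-KO (PAX6, adjusted p up to 0.11, and VIM, up to 0.26, both without replicate 3), that of SOX1 (0.35, without replicate 6), of SYT1 (0.059, without replicate 3), of DCX (0.12, without replicate 2) and of SLC1A3 (0.20 in MEIS1-OE without replicate 4, and 0.081 in MEIS2-KO without replicate 2) were lost when 1 replicate number was left out. Oligodendrocyte lineage markers had 0 of 6 called in each treatment against its control by edgeR and by DESeq2, with 0 at an unadjusted p under 0.05. Between ctrl-OE and ctrl-KO, 7 of 8 neural stem cell markers were called lower and 0 higher (median log2 fold change -0.80). Of the neuron markers 4 were lower and 0 higher (median -0.91), and of the astrocyte markers 3 were lower and 1 higher (median -0.98). Oligodendrocyte lineage markers had 2 lower and 1 higher (median 0.06). Over all tested genes, 23.9% were lower and 27.5% higher there. The part of these markers in the level of RAPGEF3 was not tested.

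**Figure D5:**
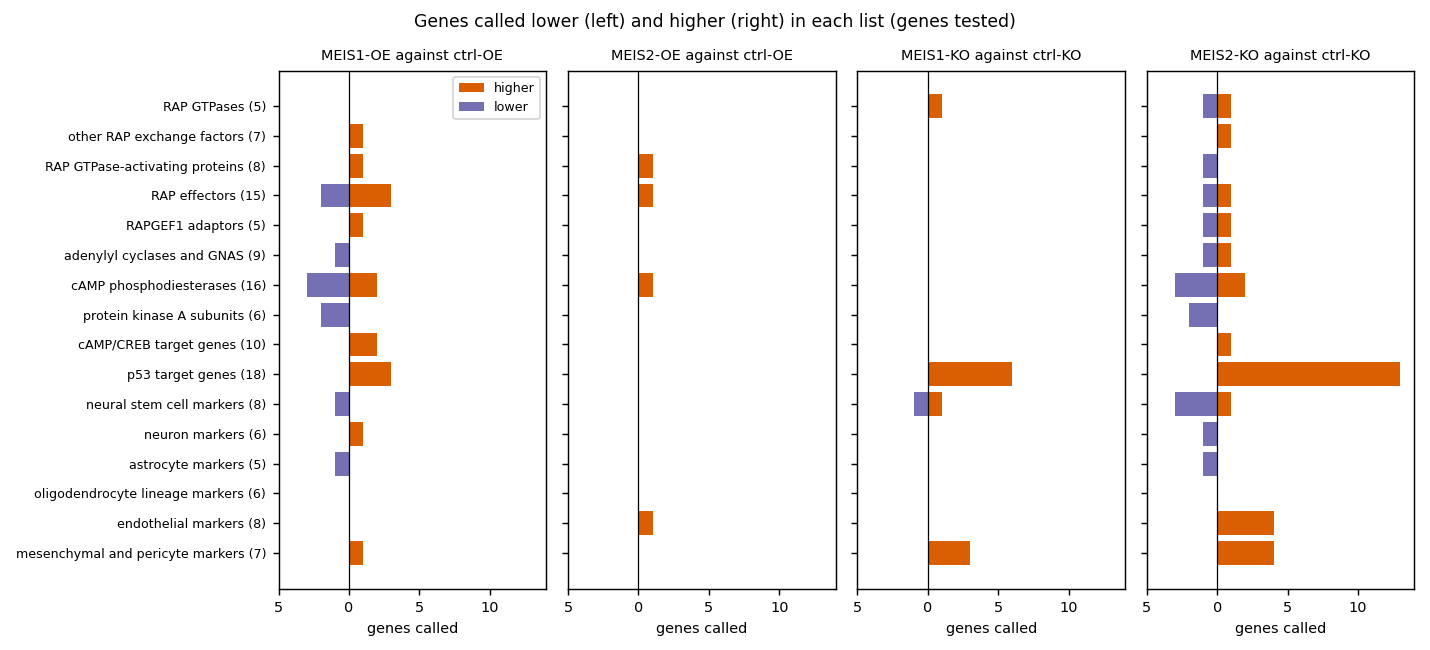
Number of genes called lower (bars to the left) and higher (bars to the right) at an adjusted p under 0.05 in each gene list, with the number of genes tested in parentheses, for the 4 comparisons with a control. The longest bar is that of p53 target genes in MEIS2-KO, with 13 of 18 higher, and lists of the RAP and cyclic AMP pathways have at most 3 genes in a direction.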

How the data were processed

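RNA-seq counts of 36 hNSC libraries in 6 treatments were used. The deposited counts are raw reads per gene symbol, made by the authors with HTSeq from paired reads of 100 bases on hg19. The submitters' processing notes name STAR 2.7.0a and Trimmomatic 0.39, while the design text names STAR 2.4.2a. The annotation and strand setting of the counting are not given in the sources used here. Columns were matched to samples by their labels.

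Genes with at least 10 counts in total were fitted in edgeR 4.0.16 (R 4.3.3, TMM, quasi-likelihood F test, 1 fit of 6 groups, two-sided). The SE was taken as the size of the log2 fold change over the root of F, and p was adjusted by Benjamini-Hochberg over all 19689 genes. The procedure was tested on simulated data. DESeq2 1.42.0, RLE factors, other filters, a replicate block, only the compared groups and each replicate left out were alternatives, and a GC-content correction (lowess span 0.3, as an offset) and all alternatives for gene lists and neighbours were added after seeing the data. The members and lists were chosen with earlier results of these data known. Named were all RAPGEF genes, MEIS1, MEIS2, up to 3 called genes per list and comparison by adjusted p, genes within 100 kb of RAPGEF3 and the 5 most correlated with it, of which 1 is not reported here. SOX2, NES, SNAP25 and marker genes at or near 0, and RAPGEF6 among the correlations, were named after their values were seen. Positions and exons come from GENCODE release 44 on GRCh37. Pairs of libraries within a treatment differed by more than sampling noise.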

Additional observations from a re-analysis of the deposited data

Results flagged for a closer look

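In MEIS1-OE, replicate 3 had 135 CPM of RAPGEF2, apart from the other 5 libraries around a group median of 115 CPM. In MEIS1-KO, replicate 6 had 34.5 CPM of RAPGEF6, below the other 5 libraries around a group median of 43.4 CPM. Each was farther from its group than Dixon's 95% criterion for 6 samples allows. In total 36 sets of 6 libraries were looked at, and chance marks about 1 in 20.

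The effects of activation and knockout of MEIS2 on RAPGEF3 differed by -0.68 on the log2 scale, and the effects of MEIS1-OE and MEIS2-OE on RAPGEF3 differed by 0.62, both values resting on libraries that chose the genes. The effects of MEIS1-OE and MEIS2-OE differed by 0.27 for RAPGEF5 (adjusted p = 0.036, edgeR) and by -0.22 for RAPGEF6 (adjusted p = 0.032, edgeR) in a test of the difference itself, with 5 of 6 libraries in the direction beyond the range of MEIS2-OE for each. Both calls were fragile. RAPGEF5 lost its call without replicate 2, 4, 5 or 6 (adjusted p up to 0.15), and RAPGEF6 without replicate 1, 2, 4 or 5 (up to 0.19).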

How the results depend on the processing

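Of 507 fold changes of RAPGEF genes under the alternatives, 479 kept their direction and their side of the threshold, 13 lost it, 2 gained it and 13 changed sign. The 507 include fold changes of RAPGEF3 that rest on libraries that chose the genes. For those the side of the threshold is not a test, and nothing is read from it. All 36 mean levels moved by less than 1 SD with RLE size factors. Without 1 replicate number, the count of called RAPGEF genes ranged from 1 to 2 in MEIS2-KO and from 1 to 3 in MEIS1-OE against MEIS2-OE. The lowest count of 1 was RAPGEF3 in both, which rests on libraries that chose the genes. Every change of sign was of a value that was not called. Without 1 replicate number, RAPGEF1 ranged from -0.026 to 0.029 in MEIS2-OE and from -0.014 to 0.080 in MEIS1-KO, RAPGEF2 from -0.019 to 0.073 in MEIS1-KO, and RAPGEF4 from -0.096 to 0.090 in MEIS1-KO and from -0.17 to 0.099 in MEIS2-KO. With the GC-content correction, RAPGEF1 was at 0.026 in MEIS2-OE, -0.016 in MEIS1-KO and -0.044 in MEIS2-KO, and RAPGEF4 at 0.0014 in MEIS2-KO. The cause was not tested. In MEIS1-KO the number of p53 target genes called higher was 10 with the replicate block and with DESeq2, and 3 without replicate 1, 3, 4 or 5. Same-numbered libraries of different treatments deviated together only weakly (mean r = 0.036, with 16 of 90 pairs above 0.1), so the number was not taken as a pairing. With the replicate number as a block, 2 of 6 RAPGEF genes were called in MEIS1-OE, 0 in MEIS2-OE, 1 in MEIS1-KO and 2 in MEIS2-KO. RAPGEF3, fixed by the choice of the genes, was 1 of those called in each count above 0. In the fit without the block, 9.10%, 1.35%, 1.46% and 10.0% of all tested genes were called in these comparisons. The block changed no call of a RAPGEF gene. At 10 to 43 counts per library, RAPGEF4 is limited by depth.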
